A study of Mus musculus with 6 samples.

Results

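The genes described here carry the core of Notch signalling: the ligand genes Dll1, Dll3, Jag1 and Jag2, the receptor genes Notch1, Notch2 and Notch3, the nuclear mediator genes Rbpj and Maml1, and the modulator gene Dtx1. They were taken as every probe set whose platform annotation gives exactly one of these 10 symbols, which made 21 of 45037 probe sets, and 10 of 18193 genes. A probe set is a group of short array probes read together as 1 signal, and each of the 10 genes had at least 1.

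Signals came from Wnt3a null and from Wnt3a wild type mouse embryos of embryonic day 7.75 to 8, with 0 to 2 somites, on a mixed background of C57BL/6 and 129/Sv. Tissue around the node and the primitive streak was dissected, and amplified RNA of 3 embryos was pooled for each Affymetrix array. Each genotype had 3 pools, numbered 1 to 3 in the labels, so 9 embryos. The comparison asks which genes depend on Wnt3a, a secreted signal of the streak. The sources used here do not give how the null allele alters Wnt3a, and its 1 probe set, with 961, 761 and 1009 in null pools against 864, 1058 and 996 in wild-type pools, does not check the labels.

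In Notch signalling, a ligand on one cell binds a receptor on its neighbour, and the receptor is then cut so that its intracellular part enters the nucleus. There it joins the DNA-binding protein Rbpj and a coactivator of the Mastermind family, such as Maml1, and switches on targets of the Hes and Hey families. In the presomitic mesoderm, which forms from cells that leave the streak, Notch signalling through Dll1 and Notch1 takes part in the segmentation clock that spaces the somites. Dll3 differs from the other ligands in that it does not activate receptors on neighbouring cells.

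Median signals per array ran from 77.7 to 86.1 in null pools, against 73.6 to 81.0 in wild-type pools, and the log2 signals of any pair of arrays correlated at 0.903 to 0.915 within a genotype and at 0.902 to 0.912 between genotypes. For Gapdh, the signal near the 3' end was 2.09 to 2.39 times that near the 5' end in null pools, against 2.51 to 3.00 times in wild-type pools, so the genotypes did not overlap in this ratio, which RNA integrity and amplification affect. The same ratio for actin overlapped, at 2.38 to 3.83 in null pools, against 2.68 to 3.69 in wild-type pools. The Y-linked gene Eif2s3y read 4.31 in wild-type pool 1 and 1053 to 1788 on the other arrays. Without that pool the log2 differences between genotypes were -0.68 for Dll1, -0.45 for Notch1, -0.17 for Rbpj and 0.50 for Dtx1. The number of arrays limits the precision throughout, and signals of different probe sets are not compared as levels, since each binds with its own strength.

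To show the sequence in front of the ligand gene with the largest difference and of its relative, the 250 bases before the outermost Dll1 start and before the Dll3 start follow, from RefSeq on GRCm38.p6, read on the minus strand of chr17:15376933-15377182 and of chr7:28301786-28302035.
Dll1: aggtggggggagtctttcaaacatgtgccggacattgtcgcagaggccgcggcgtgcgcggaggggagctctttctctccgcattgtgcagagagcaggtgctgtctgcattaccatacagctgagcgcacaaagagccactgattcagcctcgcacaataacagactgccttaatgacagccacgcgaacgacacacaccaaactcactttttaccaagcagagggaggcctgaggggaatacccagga
Dll3: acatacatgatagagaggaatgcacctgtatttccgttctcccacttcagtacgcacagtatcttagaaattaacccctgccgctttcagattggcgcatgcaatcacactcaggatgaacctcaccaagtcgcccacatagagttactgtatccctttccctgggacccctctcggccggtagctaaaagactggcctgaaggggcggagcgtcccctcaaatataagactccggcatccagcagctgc
Capitals would mark matches to TCF/LEF-type letters (CTTTGAA or CTTTGAT or CTTTGTA or CTTTGTT), RBPJ-type letters (GTGGGAA or ATGGGAA) or T-box-type letters (AGGTGT) on either strand, and neither window held one. Over the 12 windows of the 10 genes, 1 held a TCF/LEF-type match, 78 bases before the Maml1 start, 1 held a T-box-type match, 185 bases before a Rbpj start, and 0 held an RBPJ-type match. Of 32851 windows of this length over 27025 genes, 14.8%, 11.8% and 9.52% held a TCF/LEF-type, T-box-type and RBPJ-type match. The windows of the 10 genes had a median GC content of 64.6%, with a range of 52.0% for Dll3 to 87.2% for Jag2, against a median of 52.4% over all windows. The absence of a match says only that these letters are not in the window.

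Across the 21 probe sets the differences between genotypes were small, and the clearest was Dll1. In mean log2 signal 14 were lower and 7 higher in null pools, with a median difference of -0.11, while 48.3% of all probe sets were lower and their median was 0.01. Of the 10 brightest probe sets per gene 6 were lower, against 49.2% over all genes. limma called 0 of the 21 at an adjusted p of 0.05, as it called 0 of 45037 (0%), with a smallest adjusted p of 0.245. An unadjusted p under 0.05 was reached by 1 of the 21, Dll1, a share near the 5.05% of all probe sets (2.20% counting the lower ones alone), so this count is no result about the members. When limma was given the replicate number as a block together with its trend and robust options, a choice whose effect on these data was known beforehand, it called 22 probe sets (0.0488%), 14 of them lower (0.0311%), and Dll1 was the 1 member among them.

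Each gene is described first by its brightest probe set, all 10 of which lay at or above the median signal of all probe sets (71.5). Null and wild-type pools did not overlap for 4 of these 10, Dll1, Notch1 and Rbpj lower and Dtx1 higher in value, against 10.1% of 18193 genes treated in the same way. Over all 21 probe sets the count stayed at 4, against 9.98% of all probe sets. Groups that do not overlap must differ in 1 direction in all 3 replicate pairs, so the pairs of these 4 genes are no second observation. None of the other 6 genes had 1 direction in all pairs, which 30.2% of all genes had, and over the 21 probe sets the count was 6, near the 28.7% of all probe sets.

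**Figure D1:**
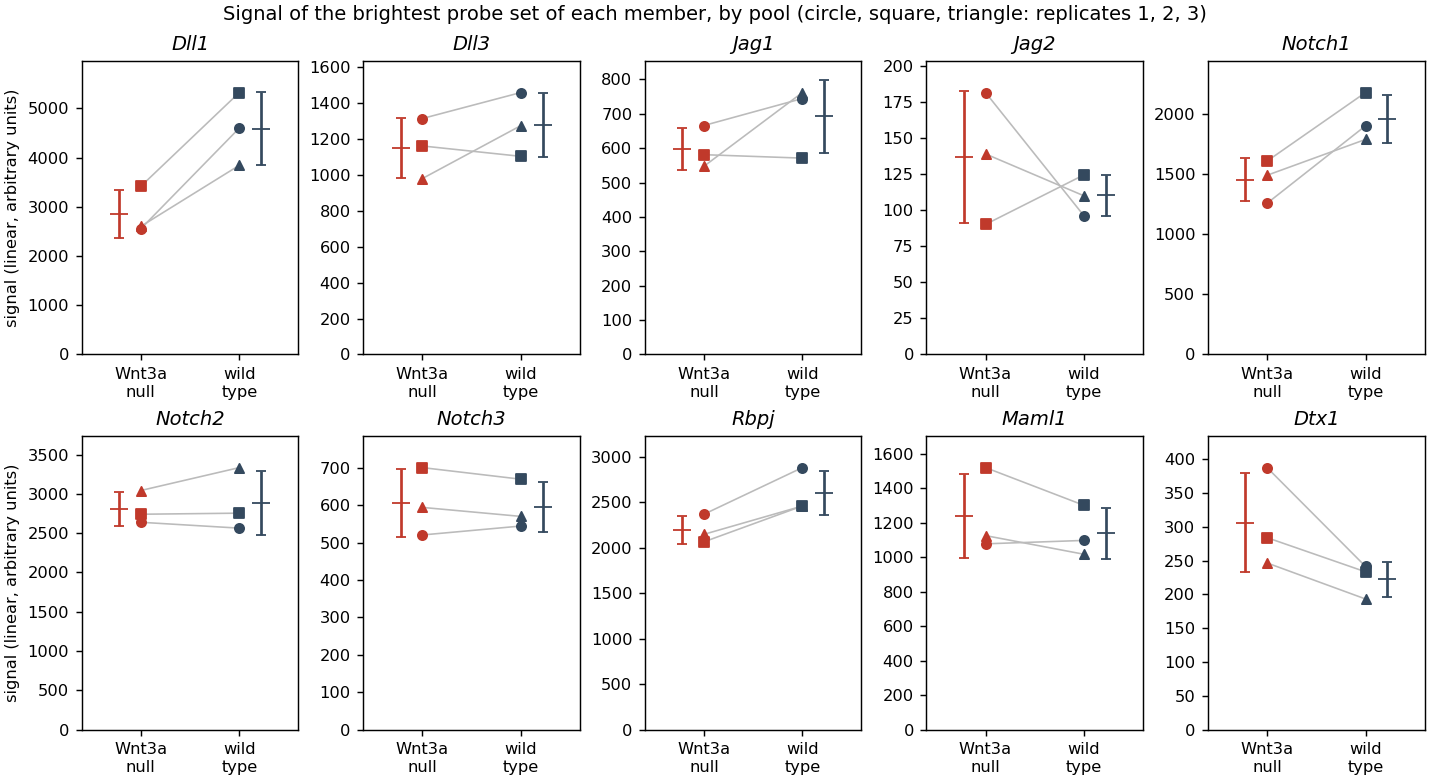
Linear signal (arbitrary units, axes from 0) of the brightest probe set of each of the 10 genes in the 3 Wnt3a null pools (red, left) and the 3 wild-type pools (blue-grey, right), with grey lines joining pools of the same replicate number and bars giving mean and SD. Null and wild-type pools are apart for Dll1, Notch1, Rbpj and Dtx1 and overlap for the other 6 genes.

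Among the ligands, Dll1, which signals to neighbouring cells in the presomitic mesoderm, had the largest difference of the 10 genes. Its single probe set (1419204_at) read 2554, 3416 and 2602 in null pools 1, 2 and 3, against 4598, 5321 and 3842 in wild-type pools 1, 2 and 3. The highest null pool lay below the lowest wild-type pool, and in both genotypes pool 2 was the highest. The mean was 2857 ± 484 in null pools, against 4587 ± 739 in wild-type pools (SD, n = 3 each), which by mean log2 was 1.61-fold lower in null pools. The log2 difference was -0.68 with a standard error of 0.24 and a 95% interval from -1.28 to -0.08 (limma, adjusted p = 0.972). By replicate number it was -0.85, -0.64 and -0.56.

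In the fit with the block, trend and robust options Dll1 was lower in null pools, with an interval from -0.90 to -0.47 and an adjusted p of 0.0460 (limma), the 20th smallest p of 45037. The same fit gave Dll1 an adjusted p of 0.120 without replicate 1, 0.0203 without replicate 2 and 0.0664 without replicate 3. With the block alone the adjusted p was 0.836 and with trend and robust options alone it was 1.00, so the call needs the block and those options together. Of 22519 probe sets at or above the median signal, 296 (1.31%) had a log2 difference as low as that of Dll1 or lower. In RNA of whole tissue, fewer cells that express a gene and less RNA per cell cannot be told apart.

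Dll3, a divergent ligand of the presomitic mesoderm, did not differ beyond the spread between pools. Its probe set (1449236_at) read 1313, 1159.9 and 979 in null pools, against 1457, 1102 and 1273 in wild-type pools. The groups overlap, and pair 2 went the other way from pairs 1 and 3. The log2 difference was -0.15 with an interval from -0.72 to 0.42, which leaves room for up to 1.65-fold.

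Jag1, a ligand of the Jagged class, read 666, 581 and 548 on its brightest probe set (1434070_at) in null pools, against 745, 571 and 762 in wild-type pools. The groups overlap, at a log2 difference of -0.20 (interval -0.76 to 0.35). Its 2 dimmer probe sets were at 0.07 and -0.39 with intervals from -1.54 to 1.68 and from -1.47 to 0.68. Wild-type pool 2 was the lowest wild-type pool on all 3 Jag1 probe sets, and its pair was the 1 with a higher null value on the brightest of them.

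Jag2, the other Jagged ligand, was near the median signal of the arrays. Its brighter probe set (1426430_at) read 181, 90.1 and 139 in null pools, against 96.1, 124 and 109.9 in wild-type pools. This made a log2 difference of 0.26 (interval -0.53 to 1.06). The null pools spread around the wild-type range on both sides. The second Jag2 probe set varied from 13.5 to 59.3 in null pools, against 5.88 to 89.3 in wild-type pools, and gives no usable direction.

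Whether the Dll1 difference departs from those of the other ligands was tested on the log2 ratio of Dll1 to each ligand within an array. The Dll1 difference was lower by 0.53 than that of Dll3 (exact permutation test, two-sided, n = 3 against 3, p = 0.1, adjusted over the 3 comparisons p = 0.2). It was lower by 0.48 than that of Jag1 and by 0.95 than that of Jag2 (exact permutation tests, p = 0.2 each, adjusted p = 0.2 each). Groups of 3 cannot give a two-sided p below 0.1. These tests could therefore not reach the threshold used here, and they do not decide the question. In each of the 3 replicate pairs Dll1 had the lower difference in all 3 comparisons. The gap was 0.18 to 0.71 against Dll3, 0.09 to 0.69 against Jag1 and 0.17 to 1.77 against Jag2. All 3 comparisons share the same Dll1 values, and Dll1 had the largest difference of the genes described in these same data. The pairs are thus no separate evidence that Dll1 departs from the other ligands.

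**Figure D2:**
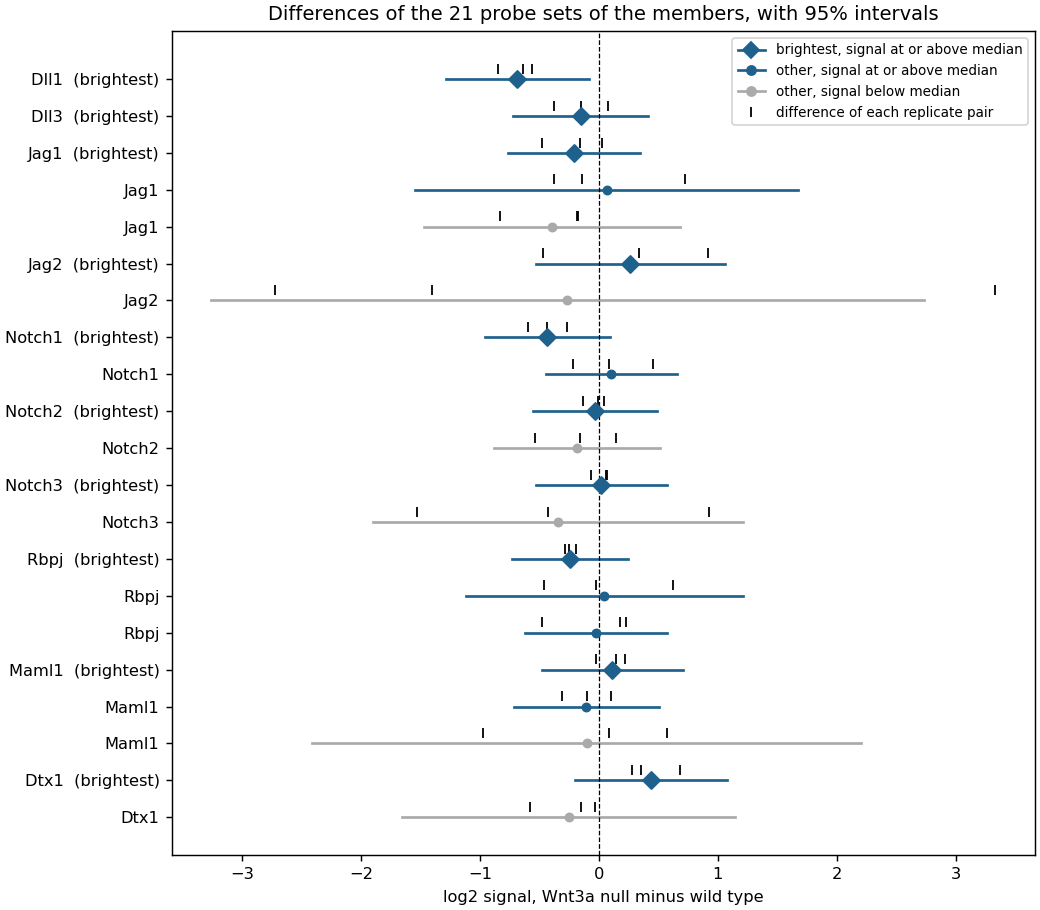
Log2 signal in Wnt3a null minus wild-type pools for each of the 21 probe sets, with 95% limma intervals. Diamonds mark the brightest probe set of a gene, grey marks a signal below the median of all probe sets, and ticks above each line give the 3 replicate pairs. The Dll1 interval alone lies wholly below 0, and the widest intervals belong to the dim Jag2 and Maml1 probe sets.

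Of the receptors, Notch1, a receptor of the segmentation clock, had lower values in null pools on its brighter probe set and not on its dimmer one. The brighter one (1418634_at) read 1256, 1606 and 1488 in null pools, against 1899, 2176 and 1786 in wild-type pools. The highest null pool lay below the lowest wild-type pool, and the pairs differed by -0.60, -0.44 and -0.26. The log2 difference was -0.43 with a standard error of 0.21 and an interval from -0.96 to 0.09 (limma, adjusted p = 1.00, or 0.341 in the fit with block, trend and robust options). Of the probe sets at or above the median signal, 941 (4.18%) had a difference as low or lower.

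The dimmer Notch1 probe set (1418633_at) read 188, 190.2 and 238 in null pools, against 177, 221 and 174 in wild-type pools. Its groups overlap, at a log2 difference of 0.11 (interval -0.45 to 0.66). The intervals of the 2 overlap between -0.45 and 0.09, and whether the probe sets differ was not tested.

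Notch2 and Notch3, further receptors of the family, showed no difference beyond the spread between pools. The brighter Notch2 probe set (1455556_at) read 2638, 2740.1 and 3042 in null pools, against 2563, 2754 and 3334 in wild-type pools. In both genotypes the order of the pools was the same, with pool 3 highest. Its log2 difference of -0.03 had an interval from -0.55 to 0.49, the narrowest bound among the 10 brightest probe sets at 1.47-fold in either direction.

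The brighter Notch3 probe set (1421965_s_at) read 520.2, 700.4 and 594 in null pools, against 544, 669 and 569.9 in wild-type pools. Here too the order of the pools was the same in both genotypes, with pool 2 highest, and the log2 difference was 0.02 (interval -0.53 to 0.57). This probe set carries the suffix that Affymetrix uses for probes shared between transcripts of more than one gene. The second probe sets of Notch2 and Notch3 lay below the median signal, with log2 differences of -0.18 and -0.34 and overlapping groups.

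Rbpj, the DNA-binding partner of all Notch receptors, was represented by 3 probe sets that did not share a pattern. The brightest (1454896_at) read 2367, 2063 and 2146 in null pools, against 2879, 2458 and 2457 in wild-type pools. The groups do not overlap and the pairs differed by -0.28, -0.25 and -0.20, a small and even shift of -0.24 (interval -0.73 to 0.25, limma, adjusted p = 1.00, or 0.631 in the fit with block, trend and robust options).

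The second Rbpj probe set (1448957_at) read 412, 1318 and 729 in null pools, against 567, 856 and 739.9 in wild-type pools. Null pools spread more widely here, with pool 1 below and pool 2 above all wild-type pools. Its log2 difference was 0.05 and that of the third was -0.03, with intervals that hold 0 near their middle.

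Maml1, a coactivator that the Notch and Rbpj complex recruits, did not differ beyond the spread between pools. Its brightest probe set (1426769_s_at) read 1078, 1521 and 1126 in null pools, against 1098, 1302 and 1018 in wild-type pools. The log2 difference was 0.11 (interval -0.48 to 0.71), the groups overlap, and pool 2 was the highest in both genotypes. Like that of Notch3, this probe set has the suffix for probes shared between genes. The 2 others were at -0.11 and -0.10, and the dimmest, at signals of 3.29 to 23.2, is near the floor of the arrays.

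Dtx1, an E3 ubiquitin ligase of the Deltex family that modulates Notch receptors, was the 1 gene of the 10 with higher values in every null pool. Its brighter probe set (1425822_a_at) read 388, 284 and 246 in null pools, against 241, 233 and 193 in wild-type pools. The lowest null pool lay just above the highest wild-type pool, and null pool 1 stood highest. The mean was 306 ± 73.1 in null pools, against 223 ± 25.8 in wild-type pools (SD, n = 3 each), with a log2 difference of 0.44, a standard error of 0.26 and an interval from -0.20 to 1.08 (limma, adjusted p = 1.00, or 0.661 in the fit with block, trend and robust options). Without null pool 1 the log2 difference was 0.26, and leaving out any 1 array gave 0.26 to 0.58. The other Dtx1 probe set, at signals of 3.02 to 9.47, is near the floor and gives no information on direction.

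**Figure D3:**
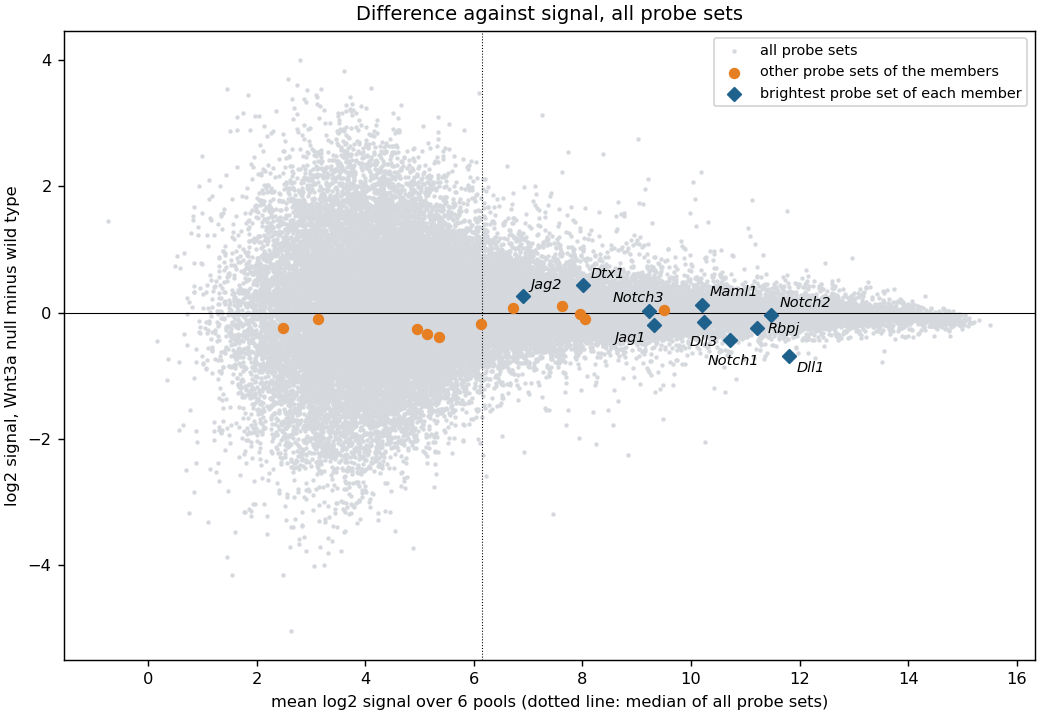
Log2 signal in Wnt3a null minus wild-type pools (y axis) against the mean log2 signal over the 6 pools (x axis) for 45037 probe sets in grey, with the brightest probe set of each of the 10 genes as labelled blue diamonds and their 11 other probe sets in orange. The spread of all probe sets widens below the dotted line at the median, and Dll1 lies toward the lower edge of probe sets of similar signal.

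The precision of the array sets what the remaining values can show. For 7 of the 10 brightest probe sets the 95% interval lay within 2-fold in either direction, the exceptions being Dll1, Jag2 and Dtx1, with bounds of up to 2.44-fold, 2.08-fold and 2.11-fold. Over all 21 probe sets 11 had intervals within 2-fold, and for the dimmer Jag2 probe set the interval reached 9.55-fold. SDs between pools of a genotype ran from 0.10 to 0.51 on the log2 scale for the brightest probe sets and up to 2.20 for the other 11. All 6 member probe sets below the median signal had lower mean log2 values in null pools, by 0.10 to 0.39. Over all probe sets, dim and bright, 48.3% were lower, and the share among dim ones alone was not counted. None of these 6 was free of overlap, and only Jag1 1421105_at among them kept its direction in all settings.

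Other genes of the pathway were read from lists of 52 genes, of which 48 were measured. limma called 0 of the 48 in either direction, 25 were lower and 23 higher in value, and the median log2 difference was -0.02, against 0.00 over all 18193 genes. Null and wild-type pools did not overlap for 8 of the 48, beside the 10.1% given above for all genes, and 4 had an unadjusted p under 0.05, against 4.46% of all genes.

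The targets had the lowest median of these lists, with 6 of 8 lower, a median of -0.34 and 4 without overlap, against 10.1% of all genes without overlap. Nrarp, a feedback inhibitor of Notch signalling, read 995, 928 and 1200.5 in null pools, against 1448, 1251 and 1704 in wild-type pools, and its pairs differed by -0.54, -0.43 and -0.51 (limma, adjusted p = 1.00). Hes5 and Hes7, repressors induced by Notch, had log2 differences of -1.78 and -0.75 with no overlap (limma, adjusted p = 0.772 and 0.963), the Hes5 probe set being of the kind that can bind related transcripts. Heyl, also a target of the pathway, went the other way at 0.71, with 97.0, 96.2 and 85.5 in null pools, against 58.3, 59.7 and 52.2 in wild-type pools (limma, adjusted p = 0.798). The summed signal of the 8 targets was 2992 to 3681 in null pools, against 4322 to 5557 in wild-type pools. The brightest probe sets weigh most in such a sum.

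Among further ligands and receptors, 3 of 5 were lower in value and none was free of overlap. Dll4, a ligand of blood vessels, had a log2 difference of 1.18 that rests on 1 array: it read 68.2, 86.2 and 116 in null pools, against 127, 112 and 4.14 in wild-type pools. Notch4, a receptor of endothelium, was at -0.26, and the Delta-like genes Dlk1 and Dlk2 were at -0.31 and -0.82. Dlk2 lay below the median signal, with an interval from -2.66 to 1.02. It read 101, 70.0 and 18.3 in null pools, against 51.2, 105 and 132 in wild-type pools. Of the glycosyltransferases that modify the receptors, 4 of 5 were lower in value, with Lfng at -1.11, Mfng at -0.76, Rfng at -0.14 and Poglut1 at 0.14. None of these 5 was free of overlap. Lfng read 148, 24.2 and 54.1 in null pools, against 117, 121 and 138 in wild-type pools, so null pool 1 lay above all wild-type pools. The Mfng value rests on null pool 3: it read 142, 132 and 13.2 in null pools, against 96.5, 122 and 102 in wild-type pools. By replicate number the Mfng differences were 0.56, 0.11 and -2.95.

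Genes for cutting the receptors differed little: 6 of 8 were higher in value, with a median of 0.10 and a range of -0.08 to 0.47. Adam10, the metalloprotease of the first cut after ligand binding, was at 0.14 and Furin, which processes the receptor on its way to the surface, at 0.23. Aph1a and Aph1b, subunits of gamma-secretase, were at 0.47 and 0.41, and the Aph1a value rests on null pool 2, at 3287 against 645 to 1166 in the other pools.

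Of the genes for endocytosis and turnover 6 of 12 were lower and 6 higher in value. Dtx3l, a relative of Dtx1, was higher in every null pool, with 489, 538 and 419 in null pools, against 325, 321 and 294 in wild-type pools. Its log2 difference was 0.61 (limma, adjusted p = 0.943). Fbxw7, which takes part in the breakdown of the Notch intracellular part, was at -0.27 without overlap, Itch, a ubiquitin ligase of the receptor, at 0.31, and Neurl1b at -0.52.

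Among 10 nuclear cofactors 4 were lower and 6 higher in value, with a median of 0.07. Cir1, a corepressor that binds Rbpj, read 270.1, 296 and 403 in null pools, against 194, 217 and 233 in wild-type pools. Its log2 difference was 0.57 (limma, adjusted p = 0.999). Hdac1, a histone deacetylase of corepressor complexes, was at 0.24, also without overlap, and the acetyltransferase genes Kat2b and Ep300 were at 0.62 and -0.17.

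**Figure D4:**
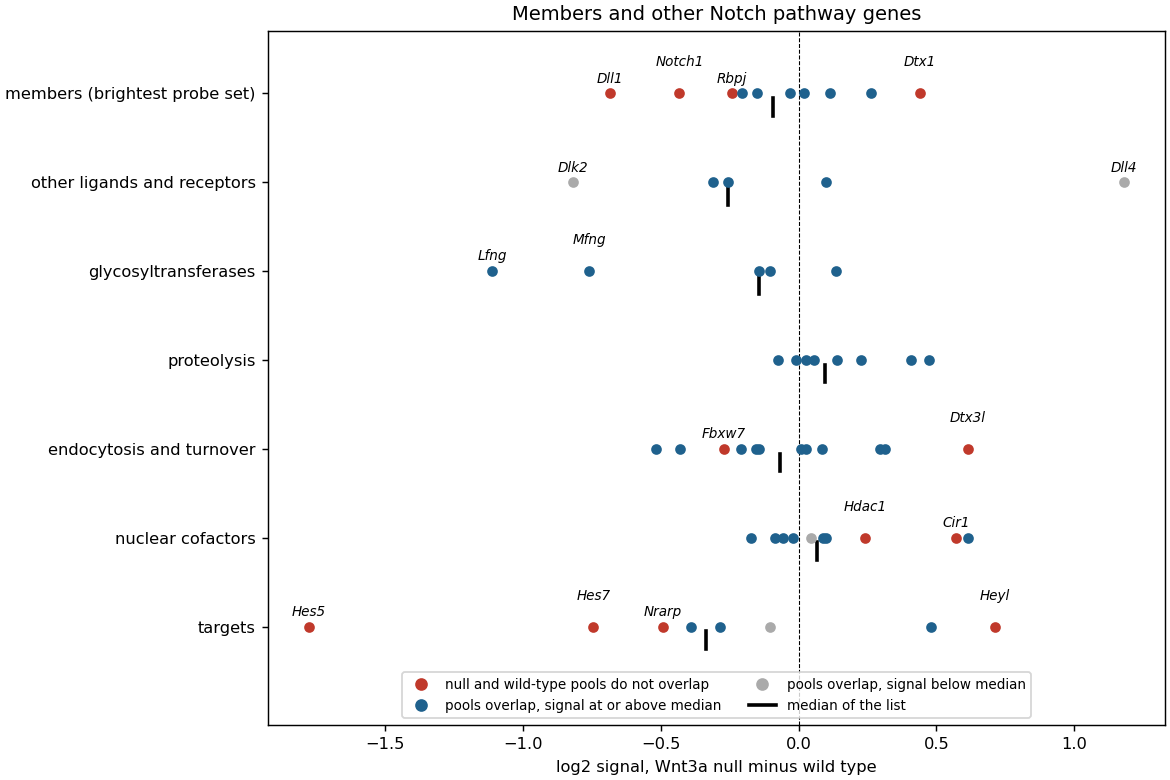
Log2 signal in Wnt3a null minus wild-type pools (x axis) for the brightest probe set of the 10 genes and of 48 other Notch pathway genes by role, with a black bar at the median of each list. Red points mark genes whose null and wild-type pools do not overlap, and these lie on both sides of 0 among the members, the turnover genes and the targets.

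Markers of cell types in and around the region were summed in the same way, and 3 of 9 such sums did not overlap between genotypes. The brightest probe sets weigh most in each sum, and how often sums over other genes stay apart was not tested. The presomitic mesoderm, where Dll1 is expressed, had 3 of 6 markers lower and 3 higher in value. Of these 6, 2 did not overlap between genotypes, against 10.1% of all genes. An unadjusted limma p under 0.05 was reached by 3 of the 6, against 4.46% of all genes, and an adjusted one by 0. The summed signal of presomitic mesoderm markers overlapped, at 6466 to 10780.1 in null pools, against 7824 to 9206 in wild-type pools. Tbx6, a T-box gene of this tissue, had a log2 difference of -0.75 and Msgn1 one of -1.13, while Ripply2 was at 1.85. Of the 5 primitive streak markers 3 were lower and 2 higher in value, with log2 differences from -1.15 to 2.26. Among these 5, 1 did not overlap between genotypes, against 10.1% of all genes. The sum of the streak markers was 1349 to 1660 in null pools, against 1967 to 4169 in wild-type pools. Whether this sum stays apart without its brightest marker was not tested.

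Markers of the neural plate were higher in value in 5 of 5 cases, and 3 of the 5 did not overlap between genotypes, against 10.1% of all genes. Their sums were 5136 to 6036 in null pools, against 3158 to 4005 in wild-type pools. Irx3, which encodes an Iroquois homeobox factor, was called higher by the fit with block, trend and robust options that called Dll1 (limma, adjusted p = 0.00516), at 2084, 2165 and 2046 in null pools, against 789, 993 and 601 in wild-type pools. Irx3 made up a large part of the neural plate sums in null pools, and whether the sums stay apart without it was not tested. Heart markers were higher in value in 4 of 5 cases, with sums of 1175 to 1436 in null pools, against 591 to 867 in wild-type pools. Endothelium markers were higher in value in 6 of 6 cases with overlapping sums, 2101 to 2367 in null pools, against 1379 to 2135 in wild-type pools. Somite sums, at 1822 to 2636 in null pools, against 1429 to 2010 in wild-type pools, overlapped, as did those of node and notochord, at 911 to 1744 in null pools, against 961 to 2249 in wild-type pools, with 5 of 6 listed markers measured. Sums of primitive red blood cell markers, at 237 to 533 in null pools, against 151 to 405 in wild-type pools, and of visceral endoderm markers, at 28549 to 43003 in null pools, against 23724 to 54560 in wild-type pools, overlapped too. No measured marker of these lists was at or below 10 on all arrays, a bound far below the median signal of 71.5. At or above that median lay 2 of the 5 heart markers and 1 of the 4 primitive red blood cell markers. In each of the other lists most markers did. The part of cell composition and of the Gapdh ratio in the values of Dll1, Notch1, Rbpj and Dtx1 was not tested.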

How the data were processed

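For each of 6 Affymetrix Mouse Genome 430 2.0 arrays, 3 per genotype, the authors deposited a linear intensity of every probe set. Amplification started from 30 to 50 ng of RNA of each embryo, and amplified RNA of 3 embryos, 600 ng in all, went into a pool, per the labels' protocols. RMA is named in the submitters' processing notes with no version given, yet the deposited intensities are linear and have a 2% trimmed mean of 500 on each array, which is not the form of RMA output. The sources used here give no other step.

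The 64 control probe sets were left out, values were turned to log2 without a floor, and null was compared with wild type over 45037 probe sets in R 4.3.3 with limma 3.58.1, two-sided, with Benjamini-Hochberg adjustment and a threshold of 0.05. The platform annotation gives 34945 of these probe sets 1 symbol, 932 several and 9160 no listed symbol. Gene counts use the brightest probe set of each of 18193 genes. For the genes described, every probe set is reported, and of each further list at most 4 genes with the smallest p. Members, lists, tests and most alternatives were chosen with earlier results of these data known, and leaving out replicates in the fit with block, trend and robust options was added after seeing the values.

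Deviations from the genotype means correlated at 0.422, 0.454 and 0.282 between arrays of the same replicate number over 18088 probe sets with a mean log2 above 7. On these values the block was read as a pairing. The highest value for arrays of unlike number was -0.0564. Deviations cancel out within a genotype, so positive values for like numbers force lower ones for unlike numbers, and the latter are no separate evidence of pairing. Over all probe sets the 3 values were 0.0537, 0.0524 and 0.0338, below the bound of 0.1, and the meaning of a number is not in the labels. The labels call the pools biological replicates, and p-values of fits without the block rest on the spread between them. In fits with the block they rest on the spread of the differences by replicate number. The main fit had no block, as the labels state none.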

Additional observations from a re-analysis of the deposited data

How the results depend on the processing

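No paired fit with the replicate block alone changed a call: it called 0 of 45037 probe sets and 0 of the 21. With block, trend and robust options together 22 probe sets were called, 1 of them a member (Dll1), and with 1 probe set per gene 11 genes, 1 of them Dll1. Trend and robust options without the block called 1 probe set and no member. Leaving out a replicate number from the fit with block and both options gave 21 to 138 calls (27 without replicate 3 and 138 without replicate 2) and 0 to 1 among the members, the cause of which was not tested. Fits that left out 1 array called none.

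Log2 differences kept their direction in all settings for 7 of the 21 probe sets: those of Dll1, Dll3 and Dtx1 (1425822_a_at), 2 of Jag1 (1434070_at, 1421105_at), the brighter of Notch1 and the brightest of Rbpj. With 1 array left out Dll1 ranged from -0.82 to -0.57. The other 14 reversed in at least 1 setting, and the cause was not tested. For Jag1 1421106_at the difference was -0.00528 with log2(signal + 50), -0.0442 with array weights, -0.59 to 0.40 with 1 array left out and -0.26 in paired fits without replicate 2. Median centring, which moved all differences by 0.05, gave -0.0322 for Notch3 1421965_s_at and -0.00462 for Rbpj 1448957_at, cyclic loess gave -0.00719 for Notch3 1421965_s_at, and array weights gave 0.30 for Jag2 1426431_at and 0.00928 for Rbpj 1418114_at.

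With 1 array left out the ranges were -1.53 to 0.43 for Jag2 1426431_at, -0.00339 to 0.22 for Notch1 1418633_at, -0.11 to 0.0766 for Notch2 1455556_at, -0.31 to 0.0532 for Notch2 1451889_at, -0.0910 to 0.12 for Notch3 1421965_s_at, -0.84 to 0.12 for Notch3 1421964_at, -0.37 to 0.46 for Rbpj 1448957_at, -0.14 to 0.13 for Rbpj 1418114_at, -0.0403 to 0.21 for Maml1 1426769_s_at, -0.25 to 0.0144 for Maml1 1452188_at, -0.83 to 0.53 for Maml1 1441697_at and -0.75 to 0.13 for Dtx1 1458643_at. Paired fits reversed to -0.0637 for Jag2 1426430_at, 0.30 for Jag2 1426431_at, 0.25 for Notch3 1421964_at and 0.20 for Rbpj 1418114_at without replicate 1. Without replicate 2 they gave 0.97 for Jag2 1426431_at, -0.00255 for Notch3 1421965_s_at, -0.24 for Rbpj 1448957_at and 0.33 for Maml1 1441697_at. Without replicate 3 they gave -0.0660 for Notch1 1418633_at and 0.0171 for Notch2 1455556_at.

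Leaving out 1 array moved the Dll1 difference beyond that of Dll3 between -0.66 and -0.32, beyond Jag1 between -0.68 and -0.23 and beyond Jag2 between -1.35 and -0.64, in each case negative. The weakest values for Dll3 and Jag1 came without wild-type replicate 2 and for Jag2 without null replicate 1. With 1 array left out the unadjusted p ran from 0.1 to 0.4 (exact permutation tests). These fits reuse the same Dll1 signals and are no separate evidence that Dll1 departs from the other ligands. With the mean over all probe sets of a gene the values were -0.51 for Jag1 and -0.68 for Jag2 (exact permutation tests, unadjusted p = 0.5 each). Signal over background limits the 6 probe sets below the median signal, and 6 arrays limit all.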
